A study of Homo sapiens with 8 samples.

Results

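The mRNAs described here are ARHGDIG, IL23R, CCDC80, LPL, TFPI, BMP6, SELENOP and ADAMTS1, 8 of the 59414 genes in the count table. They were selected on measured values: each had more reads after knockdown of EDC4 than after the control siRNA, and most are low in reads. The knockdown values below are therefore a description and carry no test. Of the 8 products, 6 are secreted proteins (CCDC80, LPL, TFPI, BMP6, SELENOP and ADAMTS1), IL23R is a receptor of the cell surface and ARHGDIG is a regulator inside the cell, so "secreted" does not describe every one of them.

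The 8 libraries came from HEK293T, an immortalised human embryonic kidney line, and their titles name PB-TRIBE-STAMP, a combination of an A-to-I and a C-to-U RNA editor directed to processing bodies (P-bodies). There were 4 groups of 2 libraries each. Sorted P-bodies (50 ng of RNA as input, labelled total RNA) were set against cytosol (100 ng, labelled cytoplasmic RNA). Cells given siEDC4 (500 ng, labelled polyA RNA) were set against cells given siNC, the control siRNA (500 ng, labelled polyA RNA). The cells of all 4 groups are HEK293T cells under the PB-TRIBE-STAMP name, and no group without the editors was analysed here. The labels give a batch number to each library, equal to its replicate number, and no label tells of separate cultures, so a p-value here reflects library-to-library spread that may be technical.

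P-bodies are cytoplasmic condensates of RNA and protein that hold translationally repressed mRNAs together with the decapping machinery. EDC4 is the scaffold that joins the decapping enzyme DCP2 to its activator DCP1. An editor held at P-bodies leaves base changes in the mRNAs it meets, so the share of reads that carry them, the editing score, is a record of contact that is separate from abundance. Secreted proteins such as those encoded by 6 of these mRNAs are translated at the endoplasmic reticulum.

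Total counts per sort library lay between 21186963 and 23716926, and the knockdown tables held 5697417 to 6294767 listed reads per library. The 2 siNC libraries differed in reads by about the sampling noise (a chi-square of 1.02 for each degree of freedom, 10642 genes), so their reads were summed and counted as 1 sample, whereas the 2 siEDC4 libraries differed by more (3.46). The A-to-I edited reads of the siNC libraries differed beyond the sampling noise (1.30 over 4458 genes) and were summed too, so the intervals of siNC scores below leave that spread out. In the sort the same measure was 3.00 between the cytosol libraries and 22.5 between the sorted P-body libraries. EDC4 itself had 245 and 186 reads in the siEDC4 libraries, against 684 and 609 in the siNC libraries, a fold of 0.341, the lowest of the 10643 genes in the A-to-I knockdown table. All 9 HEK293 markers examined were detected in the sort. Their summed level was 352 to 362 CPM (TMM-scaled counts per 1000000) in the sorted libraries, against 519 to 550 CPM in the cytosol libraries. Of these sums, the marker VIM alone made up 146 CPM (mean of the sorted libraries) and 320 CPM (mean of the cytosol libraries). Detection did not set this list apart. All 5 endothelial and all 4 adipocyte markers were detected too. So were 5 of 6 fibroblast, 4 of 5 epithelial tumour, 4 of 5 hepatocyte and 4 of 6 blood markers. Summed markers of endothelial cells reached at most 3.60 CPM, of adipocytes 1.5 CPM and of hepatocytes 1.2 CPM in any sorted P-body library, against at most 2.80, 1.10 and 0.817 CPM in any cytosol library, although LPL, TFPI and SELENOP are known from those cells. Blood markers reached 1.20 CPM in a sorted library, against 2.00 CPM in a cytosol library, with HBB and CD3E at 0. Fibroblast markers summed to 22.5 to 25.8 CPM in the sorted libraries, against 31.2 to 33.9 CPM in the cytosol libraries, with THY1 at 0, and epithelial tumour markers to 11.3 to 12.3 CPM in the sorted libraries, against 20.8 to 24.5 CPM in the cytosol libraries, with KRT19 at 0.

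After knockdown all 8 mRNAs had more RPM (reads per 1000000 listed reads) in both siEDC4 libraries than in either siNC library. Over all 10643 listed genes, 26.5% showed that pattern and 21.7% showed the opposite one, and since the pattern chose the members nothing is read from the difference. Folds are the mean of the 2 siEDC4 libraries over the summed siNC libraries. The intervals beside them come from the summed reads of each group, so they leave out the spread between the siEDC4 libraries. The median log2 fold of the 8 was 0.87, against 0.01 over all listed genes.

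ARHGDIG, a guanine nucleotide dissociation inhibitor, had 97 and 92 reads in the siEDC4 libraries, against 29 and 43 in the siNC libraries. That is 16.1 and 16.1 RPM with siEDC4, against 4.64 and 7.46 with siNC, a fold of 2.69 (exact 95% counting interval 2.04 to 3.58, counting error only), ranked 2 of all listed genes. The siEDC4 libraries were alike and the siNC libraries were apart, and the fold was 3.47 within batch 1 and 2.17 within batch 2. IL23R, the subunit that gives the interleukin-23 receptor its specificity, had 158 and 97 reads with siEDC4, against 56 and 45 with siNC, a fold of 2.57 (2.05 to 3.29) and rank 4. Here the first siEDC4 library stood higher, at 26.2 RPM, than the second at 17.0, and both stood above the siNC libraries at 8.96 and 7.80.

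CCDC80, a secreted protein of the extracellular matrix, had 108 and 98 reads with siEDC4, against 48 and 53 with siNC, a fold of 2.09 (1.64 to 2.68) and rank 6. ADAMTS1, a secreted metalloproteinase that cleaves the matrix proteoglycans versican and aggrecan, had 1163 and 1472 reads with siEDC4, against 912 and 833 with siNC. Its fold of 1.55 (1.46 to 1.64) was the smallest of the 8, ranked 59, on by far the most reads. The folds of the 2 siEDC4 libraries, 1.33 and 1.78, both lie outside that interval, which covers counting error only. The siNC libraries nearly coincided at 146 and 144 RPM, while the siEDC4 libraries stood apart at 193 and 258.

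LPL, the lipase that releases fatty acids from circulating lipoproteins, had 158 and 100 reads with siEDC4, against 81 and 63 with siNC, a fold of 1.83 (1.49 to 2.27). TFPI, the inhibitor of factor Xa and of the tissue factor complex, had 121 and 131 reads with siEDC4, against 76 and 66 with siNC, a fold of 1.82 (1.47 to 2.25). The 2 folds are alike, but LPL rested more on the first siEDC4 library (fold 2.19, against 1.47 for the second) and TFPI more on the second (1.95, against 1.70 for the first). BMP6, a secreted ligand of the bone morphogenetic protein family that induces hepcidin in liver, had 189 and 185 reads with siEDC4, against 104 and 110 with siNC, a fold of 1.79 (1.51 to 2.13). SELENOP, the selenium transport protein of plasma, had 224 and 201 reads with siEDC4, against 127 and 120 with siNC, a fold of 1.76 (1.5 to 2.07). In 4 of the 8 mRNAs the first siEDC4 library was the higher. The 8 were chosen by these values, so nothing is read from that.

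**Figure D1:**
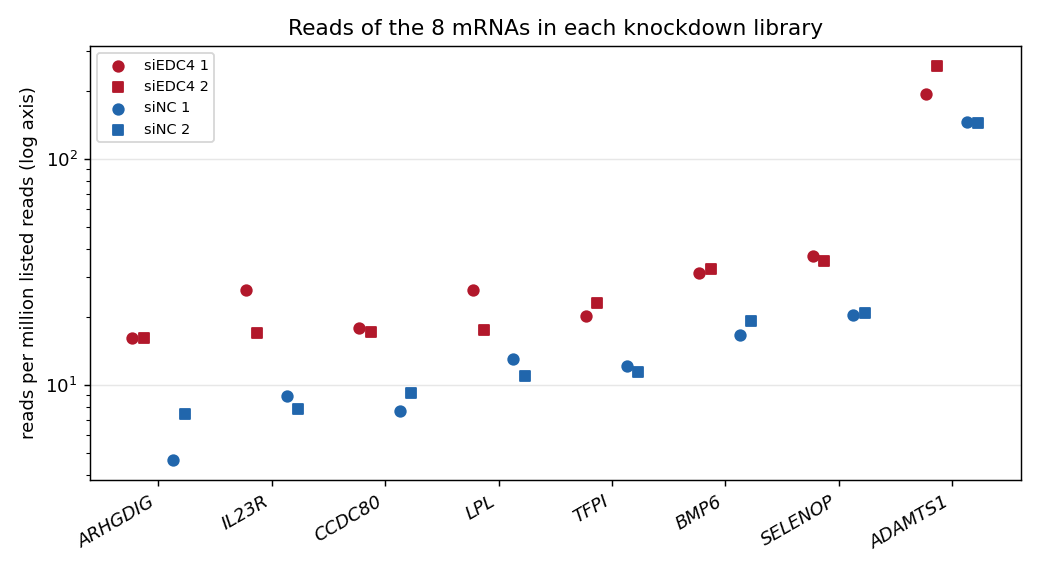
RPM of each mRNA (log axis) in the 2 siEDC4 libraries (red, left) and the 2 siNC libraries (blue, right), with circles for batch 1 and squares for batch 2. In all 8 the red points lie above the blue ones, from ARHGDIG at 16.1 against 4.64 and 7.46 RPM to ADAMTS1 at 193 and 258 against 146 and 144.

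Depth sets the counting precision of these folds. Of the 8 mRNAs, 7 had fewer reads than the median gene of the table (mean of 339 reads per library), and ARHGDIG was lowest of the 8 with 65.2. By reads in siNC, ARHGDIG stood at percentile 1.42, IL23R and CCDC80 both at 2.91, TFPI at 6.11, LPL at 6.24, BMP6 at 12.1, SELENOP at 15.1 and ADAMTS1 at 84.4 of the listed genes. The listed genes were split by reads into 4 bins of about equal size. In the bin with the fewest reads (5.25 to 178 per library) the log2 folds had an SD of 0.25, against 0.13 in the bin with the most. Of 95 listed genes with a fold of at least 1.5, 71 were in that lowest bin, which also held 7 of the 8 mRNAs. Of the 6 genes with a fold of at least 2, ARHGDIG, IL23R and CCDC80 were 3. The genes that share lists with the 8 (below) included none with a fold of at least 2. Only 6 of all 10643 listed genes reached it, so nothing is read from that.

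**Figure D2:**
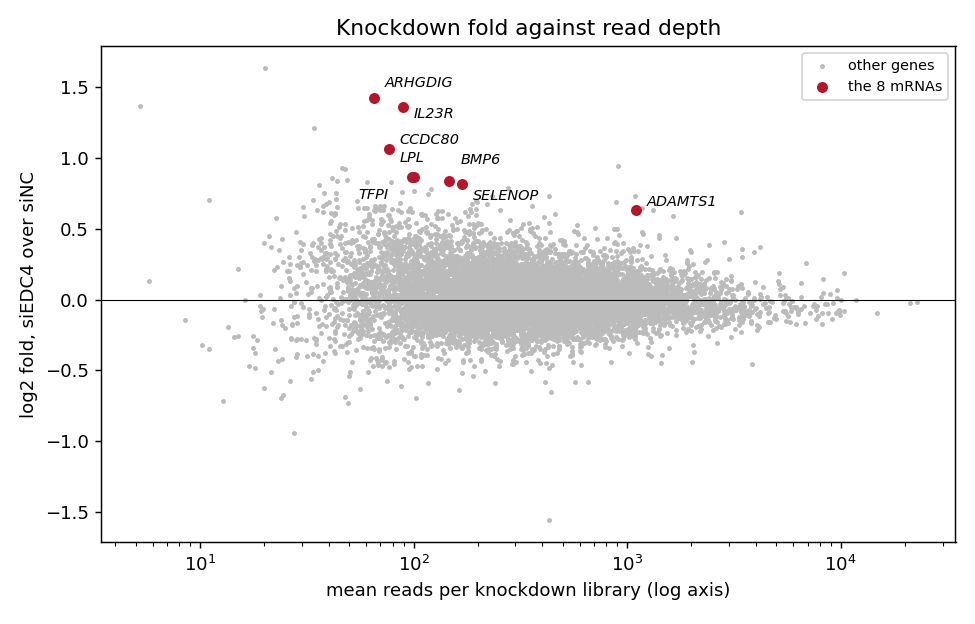
Log2 fold in reads of siEDC4 over summed siNC (vertical) against the mean reads per library (horizontal, log axis) for genes of the knockdown table also tested in the sort, with the 8 mRNAs in red. The spread of the grey points narrows with depth, and 7 of the red points lie in the bin of genes with at most 178 reads per library.

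Among the 5 genes outside the set whose profiles over the 8 libraries lay closest to the mean profile of the set were TNFSF9 (distance 0.448), H3C6 (0.455), GMPR (0.458) and GPM6A (0.469). The distance is Euclidean, on log2 levels centred within each experiment, among 8922 genes with reads in the range of the set. The members themselves lay between 0.217 (CCDC80) and 0.794 (SELENOP) from that mean. These 4 neighbours had knockdown log2 folds of 0.76 (TNFSF9), 0.61 (H3C6), 0.64 (GMPR) and 0.66 (GPM6A). All are under the median of the 8, but the 8 were chosen by this fold, so nothing is read from that.

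In sorted P-bodies the 8 mRNAs did not move together. Of the 8, TFPI, LPL and ADAMTS1 were more abundant in sorted P-bodies than in cytosol, SELENOP was less abundant, and ARHGDIG, BMP6, CCDC80 and IL23R did not pass edgeR's quasi-likelihood test at an adjusted p of 0.05. Of the 18745 genes in this test, 28.8% had a higher and 29% a lower level there, so 3 higher and 1 lower of 8 is near that background. The median log2 fold of the 8 was 0.07, against -0.03 over all genes tested. All 8 passed the filter on low counts. With scaling by library size alone, 4257 genes were higher and 6911 lower, in place of 5401 and 5440. These are bulk libraries, so a level cannot be split into the number of cells that hold an mRNA and its amount in each.

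TFPI had 26.6 and 37.0 CPM in sorted P-bodies, against 20.1 and 19.4 CPM in cytosol. Both sorted libraries lay above both cytosol libraries, and the second sorted library well above the first. The log2 fold was 0.68 (SE 0.15, edgeR adjusted p = 0.00347), with 0.40 within batch 1 and 0.93 within batch 2. LPL had 17.6 and 19.7 CPM in sorted P-bodies, against 13.2 and 12.4 CPM in cytosol, a log2 fold of 0.54 (SE 0.12, edgeR adjusted p = 0.00343), with 0.42 and 0.67 within batches 1 and 2. Without the second cytosol library the edgeR adjusted p for LPL was 0.0522.

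ADAMTS1 had 263 and 280 CPM in sorted P-bodies, against 198 and 210 CPM in cytosol, a log2 fold of 0.41 (SE 0.11, edgeR adjusted p = 0.00908) that was also 0.41 within both batches. Its call was lost with scaling by library size alone (log2 fold 0.21, edgeR adjusted p = 0.10) and without either cytosol library (edgeR adjusted p = 0.255 without the first and 0.136 without the second). SELENOP had 10.8 and 12.7 CPM in sorted P-bodies, against 19.4 and 20.2 CPM in cytosol. The groups were well apart, with a log2 fold of -0.76 (SE 0.12, edgeR adjusted p = 0.000591), -0.84 within batch 1 and -0.68 within batch 2.

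BMP6 had 22.8 and 19.8 CPM in sorted P-bodies, against 25.6 and 24.5 CPM in cytosol (log2 fold -0.23, SE 0.11, edgeR adjusted p = 0.103). ARHGDIG had 3.58 and 4.49 CPM in sorted P-bodies, against 5.64 and 5.31 CPM in cytosol (log2 fold -0.45, SE 0.19, edgeR adjusted p = 0.0673). The values of both were lower in every sorted library than in either cytosol library, and their calls turned on 1 setting or library. With scaling by library size alone both passed as lower (edgeR adjusted p = 0.0188 for BMP6 and 0.0161 for ARHGDIG), BMP6 also passed without the first sorted library (0.00218), and ARHGDIG passed without the second (0.00426) and with no filter on low counts (0.0440), all by edgeR's adjusted p. CCDC80 had 17.1 and 18.2 CPM in sorted P-bodies, against 15.0 and 17.5 CPM in cytosol (log2 fold 0.12, SE 0.12, edgeR adjusted p = 0.426), and these groups overlap. IL23R rested on 20 and 19 counts in sorted P-bodies, against 22 and 24 counts in cytosol, so its log2 fold of 0.03 has an SE of 0.34 (edgeR adjusted p = 0.95), and a modest difference was not detectable at this depth.

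**Figure D3:**
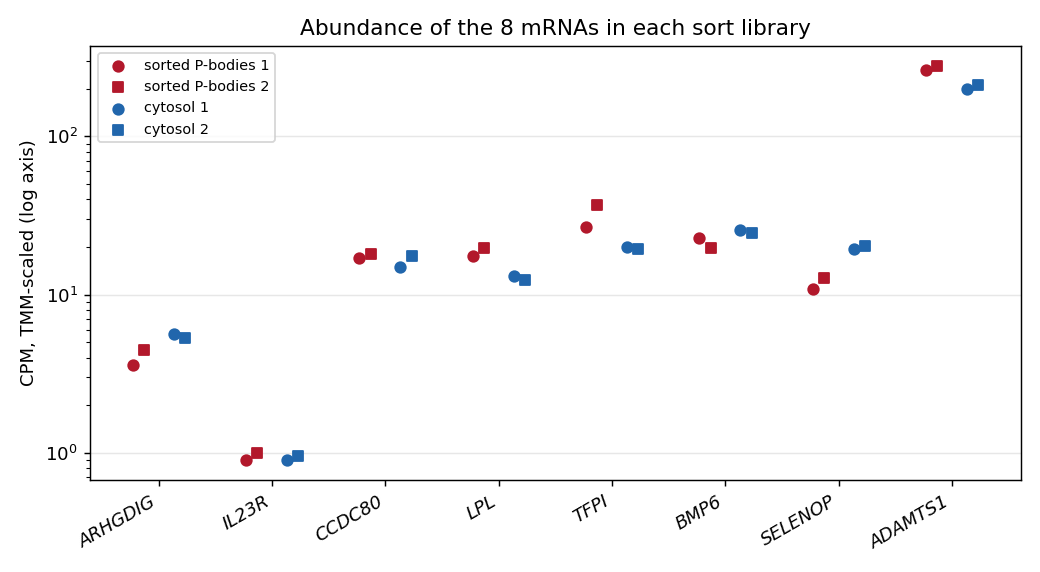
TMM-scaled CPM of each mRNA (log axis) in the 2 sorted P-body libraries (red, left) and the 2 cytosol libraries (blue, right), with circles for batch 1 and squares for batch 2. TFPI, LPL and ADAMTS1 have red above blue, SELENOP has 10.8 and 12.7 CPM against 19.4 and 20.2, and IL23R lies near 1 CPM in all 4.

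Per length, on RPKM computed from the summed exon length of each gene, the 8 were spread widely. ADAMTS1 was highest at 37.1 RPKM in sorted P-bodies and 27.9 RPKM in cytosol, at percentile 95.2 of the genes tested in sorted P-bodies and 93.6 in cytosol. BMP6 followed at 5.63 RPKM in sorted P-bodies and 6.62 RPKM in cytosol. LPL had 4.52 RPKM in sorted P-bodies, against 3.10 RPKM in cytosol, and TFPI 2.71 RPKM in sorted P-bodies, against 1.69 RPKM in cytosol. ARHGDIG had 2.18 RPKM in sorted P-bodies, against 2.96 RPKM in cytosol, and SELENOP 2.14 RPKM in sorted P-bodies, against 3.60 RPKM in cytosol. CCDC80 had 1.35 RPKM in sorted P-bodies, against 1.24 RPKM in cytosol. IL23R was lowest at 0.295 RPKM in sorted P-bodies and 0.289 RPKM in cytosol, at percentile 9.12 in sorted P-bodies. The exon lengths sum all annotated exons, which lowers values per length where a single transcript is shorter. The gap was widest for TFPI, with 11714 bases against 3885 in its chosen GENCODE v29 transcript. SELENOP (5502 against 2243) and ARHGDIG (1848 against 949) followed. For CCDC80 the lengths were close (13068 against 12430).

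The siNC and cytosol libraries differ in fraction, in RNA and in table, and the 8 mRNAs ran from far below the typical ratio of their levels to far above it. IL23R had 0.929 CPM in cytosol and 8.40 RPM in siNC, a ratio of 0.111 at percentile 0.0846 of 10643 genes, whose median ratio was 0.759. CCDC80 had 16.2 CPM in cytosol and 8.40 RPM in siNC, a ratio of 1.93 at percentile 98.9, and TFPI had a ratio of 1.67 at percentile 97.9. BMP6 and ADAMTS1 both had a ratio of 1.41 at percentile 95.2. ARHGDIG (0.914, percentile 69.7), SELENOP (0.964, percentile 74.6) and LPL (1.07, percentile 83.0) lay inside the range of most genes, whose percentiles 5 and 95 were 0.362 and 1.40. The part of the table's read counting in these ratios was not tested.

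TFPI, LPL, ADAMTS1, BMP6, CCDC80 and SELENOP had higher A-to-I scores in sorted P-bodies than in cytosol, and all but CCDC80 had higher C-to-U scores too. The A-to-I scores of the sort cover 7 of the 8 (IL23R is not listed) and the C-to-U scores cover 6 (neither IL23R nor ARHGDIG is listed). Of the 7, 6 passed edgeR's test on edited and unedited reads for A-to-I, where 73.5% of 11303 genes were called higher, and of the 6, 5 passed for C-to-U, where 67.9% of 10613 genes were called higher. The median log2 odds ratio was 1.55 in the 7 and 1.46 over all genes for A-to-I, and 2.45 in the 6 and 2.34 over all genes for C-to-U. With each library centred on its own median score, no member passed for either editor, against 29.2% of genes called in either direction for A-to-I and 16% for C-to-U. Single members ranged from 1.04 (ARHGDIG) to 2.61 (TFPI) for A-to-I and from 0.60 (CCDC80) to 3.15 (SELENOP) for C-to-U, before centring.

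For TFPI the A-to-I score was 5.84% and 10.8% in sorted P-bodies (22 of 377 and 42 of 389 reads), against 2.19% and 0.713% in cytosol (9 of 411 and 3 of 421 reads). The groups did not overlap, and the libraries differed within each group, in cytosol by the larger ratio. The log2 odds ratio of 2.61 (SE 0.51, edgeR adjusted p = 0.000217) was 1.47 within batch 1 and 4.08 within batch 2. Leaving out 1 library gave 2.01 (without the second cytosol library) to 3.61 (without the first). After centring it was 1.20 (edgeR adjusted p = 0.0855), the largest of the 7. The C-to-U score of TFPI was 15.7% and 16.0% in sorted P-bodies, against 3.39% and 3.09% in cytosol, with close replicates and a log2 odds ratio of 2.48 (SE 0.35, edgeR adjusted p = 7.00e-05). These C-to-U scores stood at percentile 96.1 of listed genes in sorted P-bodies and 94.8 in cytosol.

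LPL was strongly edited by both editors. Its A-to-I score was 21.7% and 19.0% in sorted P-bodies (61 of 281 and 49 of 258 reads), against 10.5% and 5.95% in cytosol (30 of 287 and 16 of 269 reads), a log2 odds ratio of 1.51 (SE 0.35, edgeR adjusted p = 0.000921). Its C-to-U score was 10.7% and 17.9% in sorted P-bodies, against 1.77% and 2.60% in cytosol, a log2 odds ratio of 2.86 (SE 0.50, edgeR adjusted p = 0.000323). The A-to-I scores of LPL stood at percentile 98.7 in sorted P-bodies and 96.7 in cytosol, so it was among the most edited mRNAs in both fractions.

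CCDC80 had A-to-I scores near those of LPL, and its C-to-U scores were lower than those of LPL in sorted P-bodies and overlapped them in cytosol. Its A-to-I score was 22.0% and 18.5% in sorted P-bodies (62 of 282 and 43 of 232 reads), against 9.38% and 9.12% in cytosol (30 of 320 and 34 of 373 reads), a log2 odds ratio of 1.33 (SE 0.30, edgeR adjusted p = 0.000863). Its C-to-U score was 4.18% and 1.83% in sorted P-bodies (11 of 263 and 4 of 219 reads), against 3.21% and 1.08% in cytosol (10 of 312 and 4 of 369 reads). These C-to-U values overlap between the groups, with a log2 odds ratio of 0.60 (SE 0.68, edgeR adjusted p = 0.453). After centring the log2 odds ratio of CCDC80 was -0.10 for A-to-I and -1.68 for C-to-U (edgeR adjusted p = 0.824 and 0.126); the difference between the editors was not tested.

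BMP6 had A-to-I scores of 7.89% and 7.94% in sorted P-bodies, against 2.50% and 2.65% in cytosol, a log2 odds ratio of 1.70 (SE 0.37, edgeR adjusted p = 0.000584). Its C-to-U scores were 4.23% and 5.65% in sorted P-bodies, against 0.896% and 0.947% in cytosol, a log2 odds ratio of 2.43 (SE 0.53, edgeR adjusted p = 0.00161). Replicates were close for both editors, and edited reads rose in an mRNA whose own level did not pass the test.

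SELENOP, the mRNA of the set that was less abundant in sorted P-bodies, was more edited there before centring. So were 73.5% of genes tested for A-to-I and 67.9% for C-to-U. After centring, SELENOP had log2 odds ratios of 0.21 for A-to-I and 0.89 for C-to-U (edgeR adjusted p = 0.817 and 0.385). Its C-to-U score was 13.0% and 6.49% in sorted P-bodies (21 of 162 and 10 of 154 reads), against 1.70% and 0.690% in cytosol (7 of 412 and 3 of 435 reads), a log2 odds ratio of 3.15 (SE 0.60, edgeR adjusted p = 0.000670). Its A-to-I score was 6.10% and 3.82% in sorted P-bodies, against 1.95% and 1.37% in cytosol, a log2 odds ratio of 1.64 (SE 0.58, edgeR adjusted p = 0.0183). That A-to-I call was lost without the first sorted library (edgeR adjusted p = 0.168) or without the second cytosol library (0.0819).

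ADAMTS1 gave the most precise scores, on 3438 to 4337 reads per library. Its A-to-I score was 7.93% and 8.65% in sorted P-bodies, against 3.37% and 2.63% in cytosol, a log2 odds ratio of 1.55 (SE 0.15, edgeR adjusted p = 1.20e-07). Its C-to-U score was 1.67% and 1.72% in sorted P-bodies, against 0.272% and 0.419% in cytosol, a log2 odds ratio of 2.30 (SE 0.33, edgeR adjusted p = 8.86e-05). ARHGDIG had a single edited A-to-I read in each fraction, 0 of 59 and 1 of 50 reads in sorted P-bodies, against 1 of 114 and 0 of 109 reads in cytosol. Counts of 0 allow scores of up to 5.08% in the first sorted library and 2.75% in the second cytosol library, so no difference in its editing was detectable at this depth (edgeR adjusted p = 0.683).

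**Figure D4:**
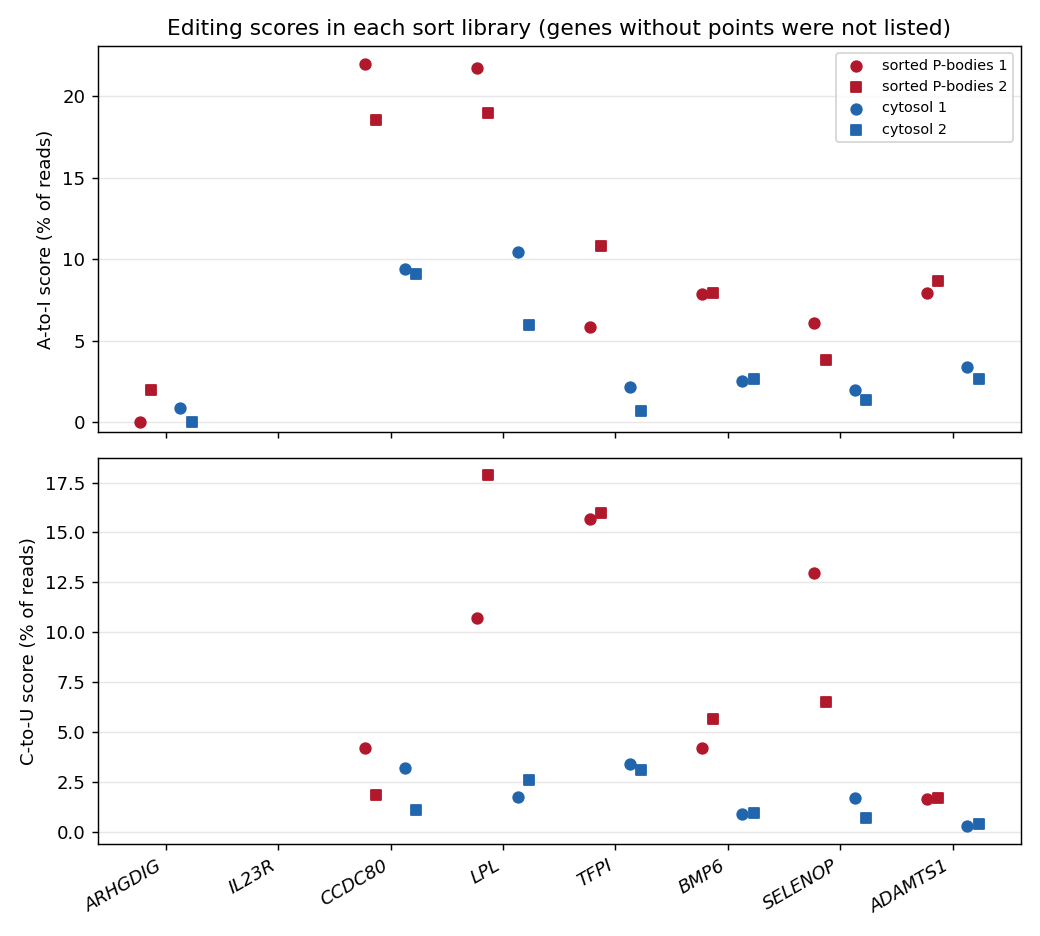
A-to-I (top) and C-to-U (bottom) editing scores of each mRNA, as percent of reads, in the 2 sorted P-body libraries (red, left) and the 2 cytosol libraries (blue, right). LPL has the highest C-to-U point at 17.9%, CCDC80 and LPL exceed 18% A-to-I in both sorted libraries, and the C-to-U points of CCDC80 overlap between fractions.

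After knockdown the scores of most of these mRNAs rested on fewer than 10 edited reads. Summed over the libraries of a group, the A-to-I score was higher with siEDC4 than with siNC in 4 of the 8 (63.9% of all listed genes) and lower in 3, with ARHGDIG at 0 in both. The C-to-U score was higher in 5 of the 8 (60.3% of all listed genes) and lower in 2, with CCDC80 at 0 in both.

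LPL had 8 of 258 A-to-I edited reads with siEDC4 (3.10%, exact 95% interval 1.35 to 6.02%), against 0 of 144 with siNC, which allows up to 2.08%. Its C-to-U count was 9 of 261 reads with siEDC4 (3.45%, 1.59 to 6.4%), against 0 of 142 with siNC, which allows up to 2.11%. TFPI had 7 of 252 C-to-U edited reads with siEDC4 (2.78%, 1.12 to 5.64%), against 0 of 142 with siNC (up to 2.11%). BMP6 had 7 of 375 with siEDC4 (1.87%, 0.754 to 3.81%), against 0 of 216 with siNC (up to 1.39%). In all of these the lower end of the siEDC4 interval lies under the limit for siNC, and no test between the groups was made.

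The other scores were as low. For A-to-I, IL23R had 1 of 255 edited reads with siEDC4 (0.392%), against 2 of 101 with siNC (1.98%), and CCDC80 had 0 of 206 with siEDC4 (up to 1.46%), against 1 of 101 with siNC (0.990%). TFPI had 2 of 252 with siEDC4 (0.794%), against 0 of 142 with siNC (up to 2.11%), and BMP6 had 4 of 374 with siEDC4 (1.07%), against 1 of 214 with siNC (0.467%). SELENOP had 6 of 425 with siEDC4 (1.41%), against 4 of 247 with siNC (1.62%), and ARHGDIG had 0 of 189 with siEDC4 (up to 1.59%), against 0 of 72 with siNC (up to 4.17%). For C-to-U, ARHGDIG had 3 of 190 edited reads with siEDC4 (1.58%), against 1 of 73 with siNC (1.37%), IL23R had 4 of 248 with siEDC4 (1.61%), against 2 of 100 with siNC (2.00%), and CCDC80 had 0 of 203 with siEDC4 (up to 1.48%), against 0 of 97 with siNC (up to 3.09%). The median listed gene had an A-to-I score of 1.28% with siEDC4, against 1.03% with siNC, and a C-to-U score of 1.80% with siEDC4, against 1.59% with siNC. On these few edited reads, a shift of that size in these mRNAs was not detectable.

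SELENOP had the highest C-to-U score of the 8 in the knockdown libraries, 39 of 434 reads with siEDC4 (8.99%, 6.47 to 12.1%), against 16 of 251 with siNC (6.37%, 3.69 to 10.1%), at percentile 98.5 of listed genes with siEDC4 and 96.5 with siNC. The intervals overlap. ADAMTS1 had an A-to-I score of 3.91% with siEDC4 (103 of 2635 reads, 3.20 to 4.72%), against 3.72% with siNC (65 of 1745 reads, 2.89 to 4.72%). Its C-to-U score was 0.341% with siEDC4 (9 of 2639 reads, 0.156 to 0.646%), against 1.31% with siNC (23 of 1755 reads, 0.833 to 1.96%). Those intervals do not overlap, and both siEDC4 libraries (0.602% and 0.136%) lay under both siNC libraries (1.41% and 1.20%). Of the 16 pairs of intervals, over 8 mRNAs and both editors, this was the only pair that did not overlap, and it was not tested either. The share of all listed genes with such a gap was not counted. The intervals also leave out the spread between libraries, so nothing is read from this pair.

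In the count table (hg38) ARHGDIG spans chr16:280450-283010 on the plus strand, IL23R chr1:67138907-67259979 (plus), CCDC80 chr3:112596797-112649530 (minus), LPL chr8:19901717-19967259 (plus), TFPI chr2:187464230-187565760 (minus), BMP6 chr6:7726099-7881728 (plus), SELENOP chr5:42799880-42887392 (minus) and ADAMTS1 chr21:26835755-26845409 (minus). SELENOP shares 1452 exonic bases with CCDC152 on the other strand, which had 0 to 3 counts per library, and BMP6 shares 212 with TXNDC5, which had 88 to 214. Whether strand was used in counting is not given in the sources used here, so reads of these overlaps cannot be assigned with certainty.

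All 8 genes matched a protein-coding transcript in GENCODE v29, and their transcripts differed widely. ARHGDIG has a short, GC-rich transcript of 949 bases with 67.8% GC, at percentile 98.7 of 13596 protein-coding genes tested. TFPI has 35.1% GC, at percentile 1.23, SELENOP 38.1%, IL23R 39.8%, CCDC80 42.8%, LPL 43.7%, ADAMTS1 48.6% and BMP6 54.8%, where the median gene has 49.4%. CCDC80 has a transcript of 12430 bases, of which 8626 are 3' untranslated, at percentile 98.5 for that part. Over all these genes the median log2 fold in the sort was 0.84 in the lowest of 4 equal bins of GC content and -0.46 in the highest. TFPI, LPL and ADAMTS1 lay above 0 and under the median GC content, and ARHGDIG and BMP6 lay below 0 and above it. SELENOP had a log2 fold of -0.76 at a GC content in the lowest bin. IL23R, in the same bin, had 0.03 on few counts, and CCDC80, just above that bin, had 0.12. The differences of ARHGDIG, BMP6, IL23R and CCDC80 did not pass the abundance test. These are descriptions, and the part of GC content in the abundance differences was not tested.

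**Figure D5:**
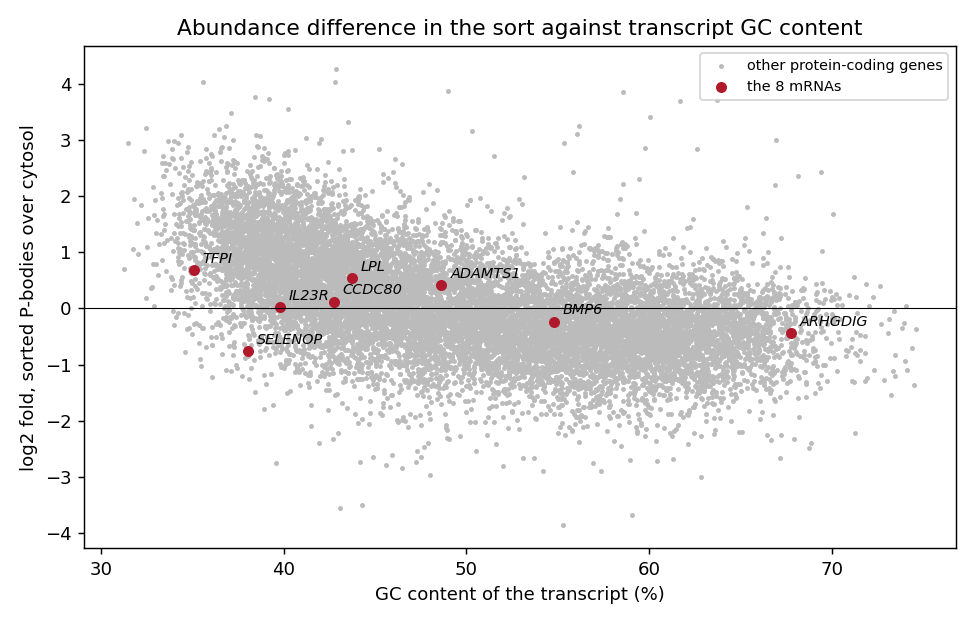
Log2 fold in abundance of sorted P-bodies over cytosol (vertical) against the GC content of the chosen GENCODE transcript in percent (horizontal) for 13596 protein-coding genes, with the 8 mRNAs in red. The grey cloud runs downward with GC content, and SELENOP, at 38.1% GC and -0.76, lies low for its GC content.

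The promoters of 4 of the 8 are in the RefSeq table for GRCh38.p14 and are shown as a description. The 8 were chosen by their higher reads after knockdown, and a part of the promoters in it was not tested. Each run gives the 250 bases before the RefSeq start, 5′ to 3′ on the strand of the gene, with matches to a searched motif in capitals. The windows are chr5:42811893-42812142 (minus) for SELENOP, chr6:7725849-7726098 (plus) for BMP6, chr3:112641144-112641393 (minus) for CCDC80 and chr2:187554436-187554685 (minus) for TFPI. Those of SELENOP, CCDC80 and TFPI lie inside the gene spans given above, which begin at other annotated starts.
SELENOP: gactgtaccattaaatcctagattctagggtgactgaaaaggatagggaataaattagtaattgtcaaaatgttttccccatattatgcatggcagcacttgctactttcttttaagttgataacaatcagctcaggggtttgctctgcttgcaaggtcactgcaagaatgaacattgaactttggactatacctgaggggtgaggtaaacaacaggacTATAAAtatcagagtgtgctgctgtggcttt
BMP6: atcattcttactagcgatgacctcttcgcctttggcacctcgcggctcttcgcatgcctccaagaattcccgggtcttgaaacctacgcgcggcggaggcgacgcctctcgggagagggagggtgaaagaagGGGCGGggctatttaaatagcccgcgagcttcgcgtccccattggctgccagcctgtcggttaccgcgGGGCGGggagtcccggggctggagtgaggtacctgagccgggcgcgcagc
CCDC80: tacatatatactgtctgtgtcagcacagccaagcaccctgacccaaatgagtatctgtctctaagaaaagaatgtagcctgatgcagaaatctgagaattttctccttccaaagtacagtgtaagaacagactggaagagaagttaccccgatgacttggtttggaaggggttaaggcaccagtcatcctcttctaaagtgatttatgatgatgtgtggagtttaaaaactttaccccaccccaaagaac
TFPI: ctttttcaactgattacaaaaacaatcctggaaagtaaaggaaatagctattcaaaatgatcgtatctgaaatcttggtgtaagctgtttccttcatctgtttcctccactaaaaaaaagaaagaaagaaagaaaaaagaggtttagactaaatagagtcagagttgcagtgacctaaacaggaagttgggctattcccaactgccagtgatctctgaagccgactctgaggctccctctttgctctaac

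The motifs searched on both strands were the TATA box TATAAA, the cyclic AMP response element TGACGTCA, the AP-1 site TGANTCA, the E-box CACGTG and the GC box GGGCGG. SELENOP has 1 TATAAA, starting 31 bases before the RefSeq start, a motif held by 10.7% of 35116 promoters of that length. BMP6 has 2 GGGCGG, starting 118 and 50 bases before the start, a motif held by 42.6% of promoters. CCDC80 and TFPI hold none of the 5 motifs in these windows, and no motif was shared by 2 of the 4; TGACGTCA is held by 1.65%, TGANTCA by 6.57% and CACGTG by 6.34% of all promoters. The GC content was 64.4% for BMP6, against 42.0% for CCDC80, 39.6% for SELENOP and 38.4% for TFPI, where the median promoter has 58%. A match is a run of letters and not a site.

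The other genes of the pathways these mRNAs belong to were counted from lists that leave the members out, beside 28.8% of all genes higher and 29% lower in the sort. After knockdown, higher and lower mean both siEDC4 libraries above or below both siNC libraries in reads, which held for 26.5% and 21.7% of all listed genes. Of 37 tested genes of bone morphogenetic protein and TGF-beta signalling, around BMP6, 19 rose and 5 fell in the sorted fraction, with a median log2 fold of 0.43. With scaling by library size alone, 14 rose and 6 fell. INHBA, an activin subunit, had the largest rise (log2 fold 2.10, SE 0.68, edgeR adjusted p = 0.0244, with means of 0.719 CPM in sorted P-bodies, against 0.160 CPM in cytosol). TGFB1, a ligand, had the largest fall (-1.57, SE 0.14, edgeR adjusted p = 1.36e-05). After knockdown 5 of 27 listed genes of that list were higher in both siEDC4 libraries and 7 lower.

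Extracellular matrix genes, around CCDC80, ran the other way, with 2 of 27 tested higher and 17 lower in sorted P-bodies and a median log2 fold of -0.57. With scaling by library size alone, 0 were higher and 17 lower. THBS1, an adhesive matrix glycoprotein, had the larger rise (0.59, SE 0.17, edgeR adjusted p = 0.0139), and SPARC, a collagen-binding matrix protein, the largest fall (-2.73, SE 0.43, edgeR adjusted p = 0.000439). Of 21 listed after knockdown, 12 were higher in both siEDC4 libraries and 0 lower. Among 23 tested matrix proteases and inhibitors, around ADAMTS1, 7 were higher and 8 lower, led by the procollagen protease ADAMTS3 (1.62, SE 0.13, edgeR adjusted p = 1.00e-05) and the inhibitor TIMP1 (-2.35, SE 0.19, edgeR adjusted p = 8.92e-06). With scaling by library size alone, 5 were higher and 11 lower. After knockdown 8 of 14 listed were higher and 1 lower.

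Among 15 tested coagulation genes, around TFPI, 3 were higher and 7 lower, from coagulation factor gene F8 (1.56, SE 0.18, edgeR adjusted p = 6.53e-05) to the protease inhibitor SERPINE2 (-1.16, SE 0.11, edgeR adjusted p = 2.61e-05). With library size alone, 2 were higher and 8 lower. After knockdown 5 of 11 listed were higher and 0 lower. Among 13 tested genes of lipoprotein lipase maturation and lipoprotein receptors, around LPL, 5 were higher and 3 lower, from SEL1L, which takes part in the maturation of LPL (1.25, SE 0.14, edgeR adjusted p = 4.54e-05), to APOE, a ligand of lipoprotein receptors (-1.14, SE 0.23, edgeR adjusted p = 0.00207). After knockdown 6 of 9 listed were higher and 2 lower.

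Among 24 tested selenoproteins and selenocysteine factors, around SELENOP, 5 were higher and 10 lower, with SELENOI at 1.56 (SE 0.12, edgeR adjusted p = 7.39e-06) and the secreted glutathione peroxidase GPX3 at -1.87 (SE 0.12, edgeR adjusted p = 4.33e-06). With library size alone, 4 were higher and 13 lower. After knockdown 7 of 24 listed were higher and 2 lower. Among 17 tested genes of interleukin-23 and JAK-STAT signalling, around IL23R, 5 were higher and 6 lower, with the kinase JAK2 at 1.72 (SE 0.25, edgeR adjusted p = 0.000291) and the interleukin-12 receptor subunit IL12RB2 at -0.56 (SE 0.20, edgeR adjusted p = 0.0340). With library size alone, 3 were higher and 8 lower. After knockdown 3 of 10 listed were higher and 3 lower. The lipoprotein counts were the same under that scaling. Median knockdown log2 folds of these 7 lists lay between -0.06 (interleukin-23 and JAK-STAT) and 0.25 (lipoprotein lipase and receptors), against 0.87 for the 8 mRNAs, which were chosen by that measure.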

How the data were processed

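RNA of HEK293T fractions and siRNA-treated cells was sequenced in 8 libraries. For the sort, the deposited table holds raw counts of each gene. For each contrast and editor the authors deposited edited reads and reads. These reads, made by the authors before deposit, were handled here as whole counts and not as estimated counts. The 3 broken lines per table, which are not whole, were left out here. The deposited editing score is a fraction, edited reads over reads as the authors made it, and is given here as a percentage. Per the submitters' processing notes, FastQC 0.11.9, cutadapt 1.18, STAR 2.7.9a and featureCounts 2.0.1 were used with hg38. The calling of edited sites and the use of strand have no description in the sources used. Depth differs between tables, so counting intervals are exact at 95%, a count of 0 allows 3 counts, and both cover counting error only.

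The abundance test was edgeR's quasi-likelihood test (edgeR 4.0.16, R 4.3.3) after TMM and filterByExpr, and editing used the same test on edited and unedited reads, for genes edited in 2 or more libraries. P-values were Benjamini-Hochberg adjusted over all genes, with a threshold of 0.05. The SE is the estimate over the square root of F, so it restates the test. Scripts were tested on simulated data; for editing, the simulated spread between libraries was lowered after a wider one gave almost no calls, so that test shows that the estimates come back and not the power in these data. limma 3.58.1 and DESeq2 1.42.0 were alternatives. The knockdown reads, selected on, were not tested.

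Batch numbers in the labels pair the libraries. The deviations of same-numbered libraries from their group means correlated at 0.047 over genes in the sort and at -0.035 in the knockdown.

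The members and gene lists were chosen with earlier results of these data known. Named are all 8 members, EDC4, 4 of the 5 genes closest in profile, and of the 2 largest rises and 2 largest falls among the called genes of each list, the largest of each; 1 gene and 1 list are not reported here. The sequences came from RefSeq (GRCh38.p14), and transcripts from GENCODE v29, taking the principal, then the longest coding one.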

Additional observations from a re-analysis of the deposited data

How the results depend on the processing

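The 4 abundance calls (3 higher, 1 lower) stayed the same with DESeq2 and with the replicate block. Scaling by library size alone, which moved the median log2 fold of all genes to -0.23 from -0.03 and the calls over all genes to 4257 higher and 6911 lower, against 5401 and 5440, gave 3 lower calls, and no filter on low counts gave 2. Leaving out 1 library gave 2 to 5 calls in all, 1 to 3 higher and 1 to 2 lower, with the fewest without the second cytosol library.

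The log2 fold of IL23R turned to -0.17 with library size alone and to -0.0089 with no filter, and ran from -0.053 (without the second sorted library) to 0.083 without 1 library. That of CCDC80 turned to -0.081 with library size alone, and ran from -0.0057 (without the first cytosol library) to 0.22. Neither passed in any of these.

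With each library centred on its median score, 0 members passed for either editor, against 6 for A-to-I and 5 for C-to-U. The log2 odds ratios of ARHGDIG (-0.36) and CCDC80 (-0.10) for A-to-I and of CCDC80 for C-to-U (-1.68) turned. That of CCDC80 for C-to-U also turned without the first sorted library (-0.16) or the second cytosol library (-0.046), and reached 1.52 without the first. The 5 C-to-U calls held in each leave-one-out fit. The replicate block changed no call of a member. Calls over all genes under centring were 1818 higher and 1481 lower for A-to-I, against 8304 and 123, and 1207 and 487 for C-to-U, against 7211 and 33.

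The median knockdown log2 fold of 0.87 was 0.82 with log2(RPM + 1), and 0.89 to 0.97 without 1 library. The causes of these shifts were not tested. Few reads limit ARHGDIG and IL23R.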
